A study of Homo sapiens with 4 samples.

Results

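The unfolded protein response and protein folding in the endoplasmic reticulum (ER) were examined through 34 genes in SK-N-BE(2), a cell line from a human neuroblastoma. They were 5 genes of the stress sensors and their transcription factor XBP1, 19 genes of folding and retrieval, and 10 genes of ER-associated degradation. Each was chosen by name for its known role and matched by its GENCODE symbol to the Ensembl identifiers of the count table, which held 64252 genes. RNA-seq compared SK-N-BE(2) cells carrying scrambled shRNA (sh-Scb, the control group) with cells carrying sh-SAPCD2, with 2 libraries in each group and no other treatment given in the labels. All cells had thus received an shRNA, which the study delivered by lentivirus with puromycin selection, and no clone is described. The labels do not say which of the shRNAs to SAPCD2 these libraries carried, and they are taken here as cells with sh-SAPCD2#1 only because a published heatmap of SK-N-BE(2) expression heads its knockdown columns with that name. They do not state that the libraries of a group came from separate cultures either, so p-values measure only the spread between these libraries, which may be technical.

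The unfolded protein response is the program by which a cell matches the folding capacity of the ER to its load. The membrane proteins IRE1 (gene ERN1), PERK (gene EIF2AK3) and ATF6 sense misfolded protein, in part through release of the chaperone BiP (gene HSPA5). IRE1 splices the XBP1 mRNA into a form that encodes an active transcription factor, PERK slows translation and favors synthesis of ATF4, and ATF6 is cut in the Golgi to free a transcription factor. Their targets are chaperones, disulfide isomerases and the machinery that draws misfolded proteins out of the ER for destruction. Secretory cells and neurons that make peptides and catecholamines use this machinery heavily. Counts per gene show the amount of mRNA, and show neither the splicing of XBP1 nor the phosphorylation or cleavage of a sensor.

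Promoters of the genes are shown first, because ATF6 and XBP1 act through short elements close to the start of transcription. Windows from 250 bases before to 50 bases after the start came from RefSeq on GRCh38.p14, and 30 of the 34 genes had one. Both strands were searched for the ER stress response element (ERSE, CCAAT and CCACG with 9 bases between them), for ERSE-II (ATTGG and CCACG with 1 base between them), for the core of the unfolded protein response element (UPRE, TGACGTGG) and for an element bound by CHOP and ATF4 (TGATGCAAT). The windows of 4 genes that rose are printed 5′ to 3′, with the element found in capitals. The element of XBP1 begins 52 bases before the start, that of HSPA5 66, that of HERPUD1 117 and that of KDELR3, read on the opposite strand, 46.

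XBP1 promoter, chr22:28800520-28800819, minus strand: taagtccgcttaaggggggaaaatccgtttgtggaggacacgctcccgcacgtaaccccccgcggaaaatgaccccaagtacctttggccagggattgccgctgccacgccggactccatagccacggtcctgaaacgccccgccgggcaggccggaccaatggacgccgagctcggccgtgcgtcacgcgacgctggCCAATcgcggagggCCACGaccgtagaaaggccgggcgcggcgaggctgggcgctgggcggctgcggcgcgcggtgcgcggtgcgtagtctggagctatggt
HSPA5 promoter, chr9:125241294-125241593, minus strand: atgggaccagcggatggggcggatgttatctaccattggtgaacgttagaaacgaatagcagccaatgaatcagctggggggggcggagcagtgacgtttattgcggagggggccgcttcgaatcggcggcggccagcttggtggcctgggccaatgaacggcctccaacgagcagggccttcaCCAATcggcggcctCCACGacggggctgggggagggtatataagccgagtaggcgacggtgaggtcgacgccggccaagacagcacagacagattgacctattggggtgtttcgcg
HERPUD1 promoter, chr16:56931892-56932191, plus strand: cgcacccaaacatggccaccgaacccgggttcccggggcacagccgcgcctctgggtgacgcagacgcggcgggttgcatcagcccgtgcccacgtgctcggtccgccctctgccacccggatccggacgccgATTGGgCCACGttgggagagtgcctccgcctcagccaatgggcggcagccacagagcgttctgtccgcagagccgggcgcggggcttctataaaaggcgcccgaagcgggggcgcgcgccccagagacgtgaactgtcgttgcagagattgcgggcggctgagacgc
KDELR3 promoter, chr22:38467846-38468145, plus strand: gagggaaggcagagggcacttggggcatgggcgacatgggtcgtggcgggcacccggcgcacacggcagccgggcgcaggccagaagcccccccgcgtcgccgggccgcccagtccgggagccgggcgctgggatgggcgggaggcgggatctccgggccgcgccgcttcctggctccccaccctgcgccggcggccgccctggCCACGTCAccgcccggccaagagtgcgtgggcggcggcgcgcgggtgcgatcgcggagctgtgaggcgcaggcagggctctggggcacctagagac

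XBP1 and HSPA5 held an ERSE, HERPUD1 an ERSE-II and KDELR3 a UPRE core. Of all 27305 RefSeq promoters, 22 (0.0806%) held an ERSE, and 7 of these belonged to the genes described here. ERSE-II stood in 15 promoters (0.0549%), including those of HERPUD1, HYOU1 and SDF2L1. The UPRE core stood in 217 (0.795%), including those of KDELR3 and HYOU1, where it overlaps an ERSE-II. The CHOP and ATF4 element stood in 72 (0.264%) and in none of the 30 windows. Genes and elements were both chosen for their known part in this response, so these shares are no test of enrichment. The elements of the other genes are printed below as they read along the gene, with their conserved parts in capitals, because genes that rose (ERO1B, CRELD2, SDF2L1) and genes that did not pass the test (HSP90B1, CANX, CALR, HYOU1) both held them.

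ERO1B, 243 bases before the start: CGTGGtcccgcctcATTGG
CRELD2, 80 bases before the start: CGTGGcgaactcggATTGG
SDF2L1, 188 bases before the start: CGTGGaCCAAT
HSP90B1, 194 bases before the start: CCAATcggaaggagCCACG
HSP90B1, 89 bases before the start: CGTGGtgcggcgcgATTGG
CANX, 151 bases before the start: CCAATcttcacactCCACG
CALR, 225 bases before the start: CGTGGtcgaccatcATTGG
HYOU1, 185 and 79 bases before the start: CGTGGtCCAAT

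Of the 7 genes with an ERSE, 4 rose and 3 did not pass the test described next. Of the 3 with an ERSE-II, 2 rose and 1 did not. Windows were at hand for 14 of the genes that rose, 1 that fell and 15 that did not pass. Among those that rose, ERN1, DNAJB9, PDIA4, WFS1, EDEM1, EDEM3 and SYVN1 held none of the searched elements. SEL1L, which fell, held none either. A match of letters is a description and not a bound site.

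Counts were scaled by the TMM method to a common library size (CPM) and compared with edgeR's quasi-likelihood test over 18779 genes, and a gene was called higher or lower at a Benjamini-Hochberg adjusted p under 0.05. Libraries held 25347900 to 31850997 counts, and the floor of detection, set at 3 counts, was 0.0954 to 0.118 CPM and covers counting error only. SAPCD2 (chr9:137062127-137070557, minus strand) stood at 83.5 and 82.2 CPM in the control libraries and at 35.4 and 52.5 CPM in the sh-SAPCD2 libraries, which is 42.6% and 63.3% of the control mean. It fell by 0.92 on the log2 scale (SE 0.19, edgeR adjusted p = 0.0206), and its level was higher in sh-SAPCD2 replicate 2. The transcript has 66.5% GC, and the sh-SAPCD2 libraries differed along GC content, as described below. After correction for GC content and length its log2 fold change was −1.28 (edgeR adjusted p = 0.00013). The part of GC content in its difference between the sh-SAPCD2 libraries was not tested. Across genes, log2 CPM had a Pearson's r of 0.986 within the control group, 0.980 within the knockdown group and 0.954 to 0.961 across groups. Mitochondrial transcripts took 9.58% and 10.1% of the control counts and 9.07% and 7.28% of the sh-SAPCD2 counts. The summed level of 10 adrenergic neuroblastoma markers, all detected, was 2474 to 2542 CPM in the control group and 2171 to 2716 CPM in the sh-SAPCD2 group. Of 10 mesenchymal and Schwann cell markers, summing to 345 to 353 CPM and 279 to 321 CPM, PRRX1 and SOX10 were at 0, 1 of 7 tested rose (FOSL1) and 1 fell (FN1). The part of these marker, mitochondrial and depth differences in the results was not tested. In bulk RNA, fewer cells with a transcript and less of it per cell cannot be told apart.

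The genes of the ER shifted upward in the SAPCD2-knockdown group. Of the 33 genes tested, 16 rose, 1 fell and 16 did not pass, which is 48.5% higher and 3.03% lower, where 12.4% of all tested genes rose and 12.5% fell. Their median log2 fold change was 0.42, against 0.02 over all tested genes. Because the 34 genes were chosen with earlier results of these data known, these contrasts are no independent evidence. The estimate was above 0 for 26 genes and below 0 for 7. In 22 of the 33 genes both sh-SAPCD2 libraries lay above both control libraries, and in 3 (ATF6, ATF6B and SEL1L) both lay below, where 33.5% and 33.4% of all tested genes were separated in these directions. An increase past a log2 fold change of 1 was called for 6 genes (XBP1, DNAJB9, KDELR3, ERO1B, HERPUD1 and EDEM1), and in edgeR this limit took in 4.69% of tested genes on the higher side. The study applied the same limits to DESeq2. Together the 34 genes took 0.441% and 0.441% of all counts in the control libraries and 0.536% and 0.517% in the sh-SAPCD2 libraries. With a control library left out fewer of these genes were called higher, and with a sh-SAPCD2 library left out more were called higher and lower. Such fits leave 1 library in a group, and calls over all tested genes moved widely with them too. DERL3, a derlin with 5 and 6 counts in the control libraries and 5 and 2 in the sh-SAPCD2 libraries, was too low to test.

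**Figure D1:**
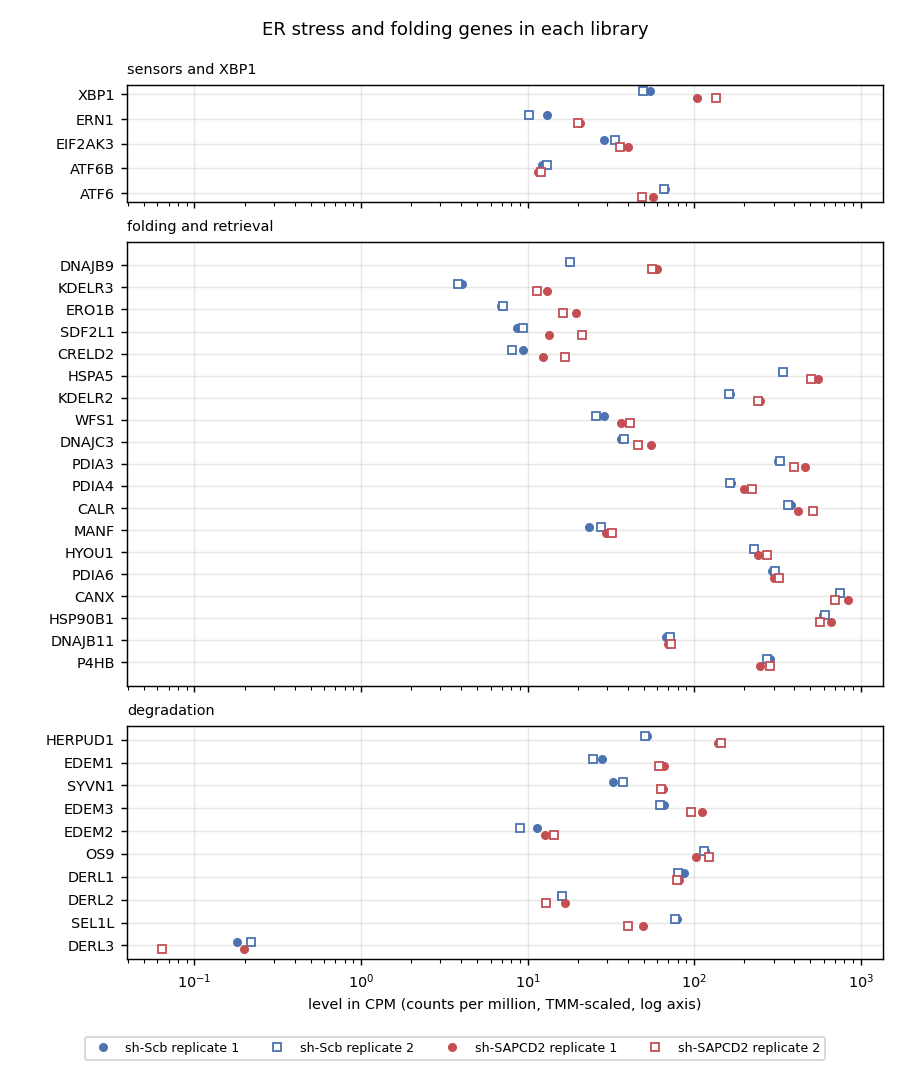
Level of each of the 34 genes in each library, in CPM (TMM-scaled) on a log axis, by class. Circles are replicate 1 and squares replicate 2, with sh-Scb in blue and sh-SAPCD2 in red. DNAJB9, KDELR3, HERPUD1 and EDEM1 are separated widely between the groups, SEL1L is lower in both sh-SAPCD2 libraries, and the red symbols of DERL3, SDF2L1 and XBP1 lie apart from each other.

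Among the sensors, IRE1 and its target XBP1 rose at the mRNA level, and the genes of the other sensors did not pass the test. XBP1 (ENSG00000100219, chr22:28794555-28800597, minus strand, 6 exons) stood at 54.7 and 49.2 CPM in the control group and at 104 and 135 CPM in the sh-SAPCD2 group. Every sh-SAPCD2 library was well above every control library, and the sh-SAPCD2 libraries also differed from each other. The increase was 2.29-fold (95% confidence interval 1.76 to 2.98, log2 fold change 1.20, SE 0.16, edgeR adjusted p = 0.00569). ERN1 (ENSG00000178607, chr17:64039080-64130819, minus strand), which encodes the kinase and nuclease that splices XBP1, stood at 13.0 and 10.3 CPM in the control group and at 20.5 and 20.2 CPM in the sh-SAPCD2 group. The knockdown libraries were nearly equal and lay above both controls, a 1.75-fold increase (log2 fold change 0.81, SE 0.17, edgeR adjusted p = 0.0206). This call was lost without a filter on low counts and without sh-Scb replicate 2.

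EIF2AK3, the gene of PERK, stood at 28.9 and 33.6 CPM in the control group and at 40.1 and 36.0 CPM in the sh-SAPCD2 group. The groups did not overlap, and the difference did not pass (log2 fold change 0.28, edgeR adjusted p = 0.189). ATF6 stood at 67.3 and 66.2 CPM in the control group and at 57.0 and 48.6 CPM in the sh-SAPCD2 group, lower in both knockdown libraries without passing the test (log2 fold change −0.34, SE 0.12, edgeR adjusted p = 0.0974). Its relative ATF6B stood at 12.3 and 13.2 CPM against 11.6 and 12.1 CPM, a log2 fold change of −0.10 (95% confidence interval −0.47 to 0.27). When libraries were corrected for GC content and transcript length, EIF2AK3 passed as higher (edgeR adjusted p = 0.0245) and ATF6 as lower (edgeR adjusted p = 0.0288).

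Among the folding genes the largest increases were those of a cochaperone, a retrieval receptor and an oxidase, and 5 of the most abundant chaperones and isomerases did not pass the test. Of the 19 genes tested, 10 rose, 0 fell and 9 did not pass in edgeR, with a median log2 fold change of 0.42. Over all tested genes, 12.4% rose and 12.5% fell in edgeR. At an unadjusted p under 0.05, 12 were higher and 0 lower, where 20.0% and 19.4% of all tested genes were. DESeq2 called 11 higher and 0 lower, where it called 15.3% and 13.8% of the genes it gave an adjusted p. With sh-Scb replicate 1 or 2 left out, fewer were called higher in edgeR. The median log2 fold change of the folding genes was 0.40 to 0.43 with each library left out. Both sh-SAPCD2 libraries lay above both controls in 14 of the 19, where 33.5% of all tested genes were separated in this direction. Per kilobase of transcript, HSP90B1, CALR, CANX, PDIA6 and P4HB had the highest control levels, from 216 down to 114 CPM per kilobase, and none of these 5 passed the test. PDIA3 and HSPA5 followed at 87.4 and 86.8 CPM per kilobase, a pair that did not differ in rank beyond the spread of the libraries, and both rose. ERO1B and KDELR3 were among the lowest at 1.41 and 2.32 CPM per kilobase, and rose among the most.

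HSPA5 (ENSG00000044574, chr9:125234853-125241382, minus strand, 8 exons) encodes BiP, the Hsp70 chaperone of the ER lumen. It stood at 336 and 344 CPM in the control group and at 556 and 501 CPM in the sh-SAPCD2 group. Both knockdown libraries were far above the narrow control range, a 1.55-fold increase (95% confidence interval 1.31 to 1.84, log2 fold change 0.64, SE 0.10, edgeR adjusted p = 0.00889). The cochaperones of BiP, J-domain proteins that stimulate its ATPase, were not alike. DNAJB9 (ENSG00000128590, chr7:108569867-108574850, plus strand), also called ERdj4, which binds both BiP and IRE1, went from 17.7 and 18.0 CPM to 59.9 and 55.9 CPM. This was the largest change among the 33 genes tested, 3.24-fold (95% confidence interval 2.63 to 3.99, log2 fold change 1.70, SE 0.12, edgeR adjusted p = 0.00201). DNAJC3, which also restrains PERK, stood at 36.3 and 37.98 CPM against 55.1 and 46.4 CPM and narrowly missed the threshold (log2 fold change 0.45, edgeR adjusted p = 0.0572). It passed with DESeq2 (adjusted p = 0.0388) and after the GC and length correction (edgeR adjusted p = 0.00219). DNAJB11 stood at 67.6 and 72.1 CPM against 70.0 and 72.8 CPM, a log2 fold change of 0.03 with a 95% confidence interval of −0.23 to 0.29. SDF2L1, a partner of DNAJB11, stood at 8.65 and 9.38 CPM against 13.4 and 21.3 CPM, a call with a wide interval (1.93-fold, 95% confidence interval 1.27 to 2.91, edgeR adjusted p = 0.0371). HYOU1, an Hsp110-like exchange factor for BiP, stood at 226 and 229 CPM against 241 and 274 CPM without passing (edgeR adjusted p = 0.262), and HSP90B1, the Hsp90 of the ER, at 591 and 610 CPM against 660 and 568 CPM, with overlapping groups.

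Calnexin and calreticulin hold glycoproteins while their sugars are trimmed. CANX stood at 749.5 and 754 CPM in the control group and at 844 and 706 CPM in the sh-SAPCD2 group, so that the groups overlapped. CALR stood at 380.2 and 367 CPM against 418 and 516 CPM, above both controls without passing the test (log2 fold change 0.32, edgeR adjusted p = 0.110). Among the disulfide isomerases, PDIA3, the partner of these lectins, rose from 317 and 327 CPM to 463 and 397 CPM (log2 fold change 0.42, SE 0.11, edgeR adjusted p = 0.0394). PDIA4 rose from 166 and 164 CPM to 201 and 224 CPM (log2 fold change 0.36, SE 0.10, edgeR adjusted p = 0.0484), a call that was lost with library totals and without a filter on low counts. PDIA6 at 296 and 308 CPM against 302 and 323 CPM and P4HB at 284 and 273 CPM against 249 and 287 CPM overlapped between groups. ERO1B (ENSG00000086619, chr1:236214681-236282019, minus strand), an oxidase that recharges the isomerases, went from 6.91 and 7.16 CPM to 19.6 and 16.4 CPM, a 2.55-fold increase (95% confidence interval 1.92 to 3.39, edgeR adjusted p = 0.00507). Its better expressed relative ERO1A stood at 113 and 111 CPM against 125 and 117.5 CPM and did not pass (log2 fold change 0.12, edgeR adjusted p = 0.425). The difference between the oxidases was not tested.

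The KDEL receptors return escaped chaperones from the Golgi to the ER. KDELR3 (ENSG00000100196, chr22:38468078-38483447, plus strand, 5 exons) went from 4.02 and 3.85 CPM to 13.0 and 11.4 CPM, with knockdown libraries far above the controls (3.10-fold, 95% confidence interval 2.28 to 4.22, log2 fold change 1.63, SE 0.18, edgeR adjusted p = 0.00406). KDELR2, a more abundant receptor, went from 164 and 162 CPM to 250 and 243 CPM (1.51-fold, log2 fold change 0.60, SE 0.09, edgeR adjusted p = 0.00866). KDELR1 stood at 74.7 and 76.4 CPM against 87.3 and 98.8 CPM and did not pass (log2 fold change 0.30, edgeR adjusted p = 0.102). Of the secreted ER stress proteins, CRELD2 rose from 9.34 and 8.10 CPM to 12.4 and 16.9 CPM (log2 fold change 0.75, SE 0.21, edgeR adjusted p = 0.0454), while MANF stood at 23.4 and 27.5 CPM against 29.8 and 32.1 CPM without passing (edgeR adjusted p = 0.201). WFS1, the ER membrane protein mutated in Wolfram syndrome, rose from 28.9 and 25.8 CPM to 36.3 and 41.1 CPM (log2 fold change 0.50, SE 0.14, edgeR adjusted p = 0.0447).

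Most of the 10 folding genes that rose lost their call in some fit with a library left out, though their estimates stayed positive. The lowest such log2 fold changes were 0.28 for PDIA4, 0.55 for HSPA5 and 0.57 for KDELR2. These fits leave 1 library in a group, and calls over all tested genes moved widely with them too. With either control library left out, HSPA5, KDELR2, PDIA3, PDIA4, CRELD2 and WFS1 were no longer called, CRELD2 was also lost without sh-SAPCD2 replicate 2, and SDF2L1 was lost without sh-Scb replicate 1, whereas DNAJB9, KDELR3 and ERO1B were called in every alternative fit at the same threshold. PDIA3, CRELD2, WFS1 and SDF2L1 were also lost without a filter on low counts. PDIA3 shares sequence with the processed copy PDIA3P1, which was given 397 to 485 counts per library, so that a small part of its reads may be placed uncertainly.

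**Figure D2:**
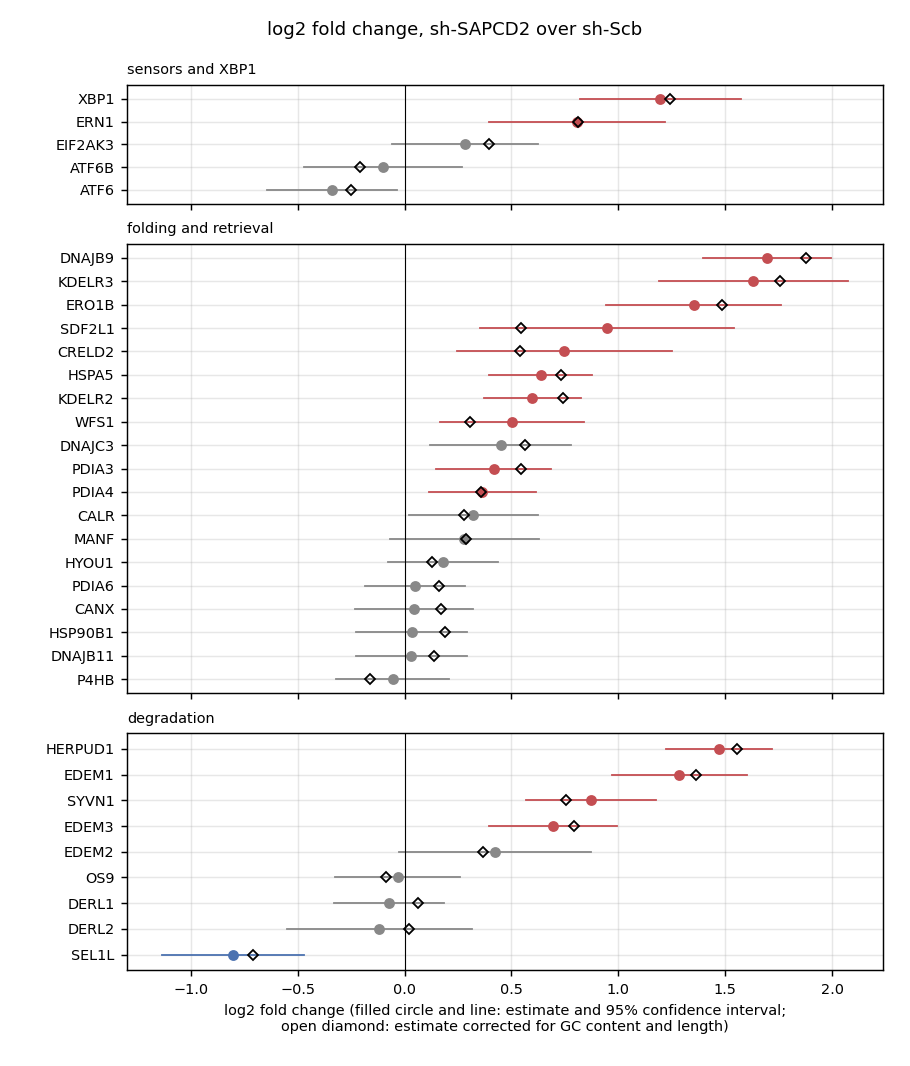
log2 fold change of sh-SAPCD2 over sh-Scb for the 33 tested genes, by class. Filled circles with lines are the edgeR estimates with 95% confidence intervals, red where called higher, blue where called lower and grey where not called, and open diamonds are estimates after GC and length correction. DNAJB9, KDELR3 and HERPUD1 lie farthest to the right, SEL1L alone lies far to the left, and the diamonds of SDF2L1, CRELD2 and WFS1 lie to the left of their circles.

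Among the degradation genes, parts of one ubiquitin ligase complex moved in opposite directions, since HERPUD1 and SYVN1 rose and SEL1L fell. Of the 9 tested, 4 rose (44.4%), 1 fell (11.1%) and 4 did not pass, where 12.4% of all tested genes rose and 12.5% fell. The median log2 fold change was 0.42, and it was 0.26 without sh-Scb replicate 2. Fewer were called higher without sh-Scb replicate 1, and more were called lower without sh-SAPCD2 replicate 2. Calls over all tested genes also moved with a library left out. HERPUD1 (ENSG00000051108, chr16:56932142-56944864, plus strand, 8 exons) encodes a membrane protein that organizes the ligase complex. It stood at 52.2 and 50.7 CPM in the control group and at 140.1 and 145 CPM in the sh-SAPCD2 group. The libraries of each group nearly coincided, and the increase was 2.77-fold (95% confidence interval 2.33 to 3.29, log2 fold change 1.47, SE 0.10, edgeR adjusted p = 0.00201). SYVN1 (ENSG00000162298, chr11:65121780-65134532, minus strand) encodes HRD1, the ubiquitin ligase itself, and went from 32.5 and 37.5 CPM to 64.8 and 63.3 CPM (1.83-fold, log2 fold change 0.87, SE 0.13, edgeR adjusted p = 0.00708).

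SEL1L (ENSG00000071537, chr14:81471547-81533853, minus strand, 21 exons), the adaptor that holds HRD1 stable and brings substrates to it, went the opposite way. It stood at 78.8 and 76.8 CPM in the control group and at 49.3 and 40.0 CPM in the sh-SAPCD2 group. Both knockdown libraries lay far below the controls, and SEL1L fell by 0.80 on the log2 scale (SE 0.14, edgeR adjusted p = 0.0112), to 0.573 times the control level with a 95% confidence interval of 0.455 to 0.722. It was called lower in every alternative fit at the same threshold.

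The EDEM proteins trim mannose from misfolded glycoproteins and so mark them for this ligase. EDEM1 (ENSG00000134109, chr3:5187646-5219958, plus strand) went from 28.0 and 24.6 CPM to 66.3 and 62.0 CPM (2.44-fold, log2 fold change 1.29, SE 0.13, edgeR adjusted p = 0.00322). EDEM3 went from 66.0 and 62.4 CPM to 112 and 95.6 CPM (1.62-fold, log2 fold change 0.69, SE 0.12, edgeR adjusted p = 0.0123). EDEM2 stood at 11.4 and 8.98 CPM against 12.8 and 14.5 CPM and did not pass (log2 fold change 0.42, edgeR adjusted p = 0.145). All 3 thus had higher values in both knockdown libraries, as did 33.5% of all tested genes, and differences among them were not tested. The lectin OS9, which presents trimmed substrates to SEL1L, stood at 116 and 115 CPM against 103 and 123 CPM. The derlins, membrane proteins of the exit channel, also overlapped between groups, with DERL1 at 86.9 and 80.5 CPM against 80.7 and 78.7 CPM and DERL2 at 16.0 and 16.1 CPM against 16.8 and 12.8 CPM. EDEM3 was no longer called with either control library left out, and SYVN1 without sh-Scb replicate 1.

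Sites that match the hairpin were also searched for, and they were found in SEL1L and HSPA5 among others. Earlier work on these counts singled out shifted seed sites of sh-SAPCD2#1 in 3′ untranslated regions (UTRs), namely TCCACCT, which pairs with its guide arm over 7 bases, AGAGGTC, which does so with its passenger arm and the base before it, and CCACCTA and GAGGTCA, which hold 6 of those bases and then an A that does not pair. Of the 3 sites of SEL1L, 2 are CCACCTA and 1 is TCCACCT. The guide arm is printed 5′ to 3′ with the bases that pair with TCCACCT, positions 5 to 11 from its 5′ end, in capitals. It is followed by sites of the gene that fell and of the only gene that rose and held any, with 10 bases on either side and the site in capitals. All 3 sites of SEL1L and 2 of the 3 sites of HSPA5 are printed.

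guide arm of sh-SAPCD2#1: atgaAGGTGGAatccagaggt
SEL1L, chr14:81476213-81476219, minus strand: cgagtttgccCCACCTActctgtaatt
SEL1L, chr14:81474885-81474891, minus strand: acagtgtgtgCCACCTAaggctggatg
SEL1L, chr14:81472927-81472933, minus strand: aaataaagatTCCACCTctggttatcc
HSPA5, chr9:125236051-125236057, minus strand: aagtgatcctTCCACCTcagtctccca
HSPA5, chr9:125234907-125234913, minus strand: ctaccgtggaCCACCTAgtctgtaact

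Such sites stood in 5 of the 33 genes tested (15.2%), against 33.9% of 13580 tested protein-coding genes. SEL1L and HSPA5 each held 3, ATF6 held 2, and PDIA6 and P4HB held 1 each. The 3′ UTRs of SEL1L and ATF6, at 5425 and 5416 bases, were the longest among the 34 genes. Those of HSPA5, PDIA6 and P4HB had 1739, 867 and 846 bases, and shares with a site were not adjusted for UTR length. By call, 1 of 16 genes that rose, 1 of 1 that fell and 3 of 16 that did not pass held a site. Over all tested protein-coding genes the share was 27.2% of those that rose and 47.0% of those that fell, a contrast that is no independent evidence because the sites were singled out on these counts. The part of these sites in the levels of SEL1L, ATF6 or HSPA5 was not tested.

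Other genes of the pathway were counted from lists compiled by known role. Of 18 genes of the PERK and ATF4 arm, all tested, 6 rose (33.3%) and 0 fell in edgeR, where 12.4% and 12.5% of all tested genes did. Their median log2 fold change was 0.67. At an unadjusted p under 0.05, 11 were higher and 1 lower, against 20.0% and 19.4% of all tested genes, and DESeq2 called 9 higher and 0 lower, against 15.3% and 13.8%. SESN2, a stress-induced inhibitor of mTORC1, went from 5.07 and 3.53 CPM to 16.2 and 19.4 CPM (log2 fold change 2.05, edgeR adjusted p = 0.00406). TRIB3, a pseudokinase that binds ATF4, went from 12.02 and 11.9 CPM to 26.4 and 30.8 CPM (log2 fold change 1.26, edgeR adjusted p = 0.00454). DDIT3, the gene of CHOP, went from 9.16 and 8.18 CPM to 19.3 and 20.2 CPM (log2 fold change 1.19, edgeR adjusted p = 0.00556). CEBPB, a dimer partner of CHOP, and PPP1R15B, a constitutive subunit of the phosphatase for eIF2α, also rose (log2 fold changes 1.20 and 0.73). ATF4 itself, which is controlled mainly in translation, stood at 465 and 465 CPM in the control group and at 411 and 413 CPM in the sh-SAPCD2 group (log2 fold change −0.17, edgeR adjusted p = 0.203). ATF3, PPP1R15A and CHAC1, further stress-induced genes, had log2 fold changes of 1.09, 0.74 and 0.81 and did not pass (edgeR adjusted p = 0.0568, 0.0661 and 0.0785).

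Of 19 further signal genes, 16 were tested, 2 rose (12.5%) and 3 fell (18.8%), with a median of 0.13. The share that rose was thus close to the 12.4% of all tested genes that did, where 12.5% fell. MBTPS1, the site-1 protease that cuts ATF6, went from 168 and 167.5 CPM to 113 and 113 CPM (log2 fold change −0.57, SE 0.09, edgeR adjusted p = 0.0102), while the site-2 protease gene MBTPS2 stood at 54.3 and 52.6 CPM against 68.5 and 52.0 CPM with overlapping groups. DNAJC10, a reductase of the ER, and NUCB1, a calcium-binding protein that restrains ATF6 cleavage, also fell (log2 fold changes −0.58 and −0.67). CREB3, a membrane-bound factor cut by the same proteases, and TMBIM6, which dampens IRE1, rose (0.86 and 0.41).

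Of 54 other folding genes, 51 were tested, 14 rose (27.5%) and 3 fell (5.88%), against 12.4% and 12.5% of all tested genes. Their median was 0.25. PDIA5, an isomerase known to act on ATF6, went from 10.8 and 11.01 CPM to 27.3 and 28.5 CPM (log2 fold change 1.35, SE 0.14, edgeR adjusted p = 0.00322). FKBP11, a prolyl isomerase, QSOX1, a sulfhydryl oxidase, and the calcium-binding proteins CALU and RCN1 rose by log2 fold changes of 1.16, 1.13, 0.87 and 0.79. The peroxiredoxin PRDX4 stood at 90.5 and 89.5 CPM against 91.6 and 108 CPM and did not pass (edgeR adjusted p = 0.392).

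Of 46 other degradation genes, all tested, 9 rose (19.6%) and 5 fell (10.9%), against 12.4% and 12.5% of all tested genes. Their median was 0.07. VCP, the ATPase that pulls substrates from the membrane, went from 281 and 275 CPM to 420.4 and 472 CPM (log2 fold change 0.68, SE 0.10, edgeR adjusted p = 0.0078), and its membrane receptor SELENOS and the ligase RNF103 rose too (0.84 and 1.09). ERLIN1, a scaffold for degradation of inositol trisphosphate receptors, went from 84.6 and 82.2 CPM to 35.1 and 27.5 CPM (log2 fold change −1.41, SE 0.15, edgeR adjusted p = 0.00345), and the rhomboid protease RHBDD1 fell as well (−0.80). Of 30 genes of the translocon, signal peptidase and oligosaccharyltransferase, all tested, 8 rose (26.7%) and 1 fell (3.33%), with a median of 0.16. SEC61A1, the channel subunit, went from 216 and 208 CPM to 362.5 and 370.5 CPM (log2 fold change 0.79, SE 0.09, edgeR adjusted p = 0.00446). SEC61B, SERP1, SSR1 and OST4 rose with it (0.91, 0.69, 0.60 and 1.15). The 12.4% and 12.5% of all tested genes that rose and fell are the background of the counts of genes that rose and fell in these lists.

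**Figure D3:**
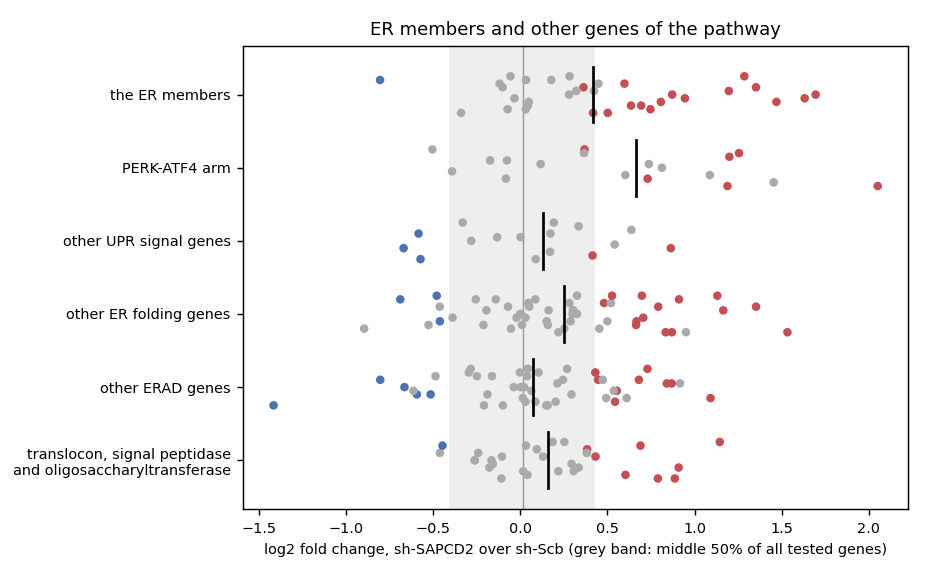
log2 fold change of sh-SAPCD2 over sh-Scb for the 33 tested ER genes and for 5 lists of other genes of the pathway. Each point is a gene, red where called higher, blue where called lower and grey where not called, black bars are medians, and the grey band holds the middle 50% of all tested genes. The medians of the ER genes (0.42) and of the PERK and ATF4 arm (0.67) lie farthest to the right, and other degradation genes (0.07) lie near the median of all tested genes (0.02).

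The sh-SAPCD2 libraries differed from each other along GC content, and this touched several of the genes. Across the 33 tested genes the log2 ratio of replicate 2 to replicate 1 had a Pearson's r of 0.84 with the GC content of the transcript in the sh-SAPCD2 group and −0.13 in the control group, and over 14679 annotated genes of at least 1 CPM the former was 0.58. These are descriptions across genes that share the same libraries. SDF2L1, with 65.1% GC, had a ratio of 0.67, CRELD2 of 0.45, XBP1 of 0.38 and CALR of 0.30. At the other end DERL2 had −0.39, SEL1L −0.30, CANX −0.26 and ERO1B −0.25, so that AT-rich genes were lower and GC-rich genes higher in replicate 2. The correction for GC content and length gave 20 genes higher and 2 lower, while over all tested genes it gave 20.6% higher and 18.2% lower. By class, 13 folding genes were higher and 0 lower, 3 sensors higher and 1 lower, and 4 degradation genes higher and 1 lower. The median over the 33 genes was then 0.37. It brought in CALR, CANX and HSP90B1 (log2 fold changes 0.28, 0.17 and 0.19), took SDF2L1 from 0.95 to 0.54 and CRELD2 from 0.75 to 0.54, and ended the call of WFS1 (0.31, edgeR adjusted p = 0.0509). SEL1L stayed lower at −0.71 and DNAJB9, KDELR3, ERO1B, HERPUD1, EDEM1 and XBP1 stayed higher.

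**Figure D4:**
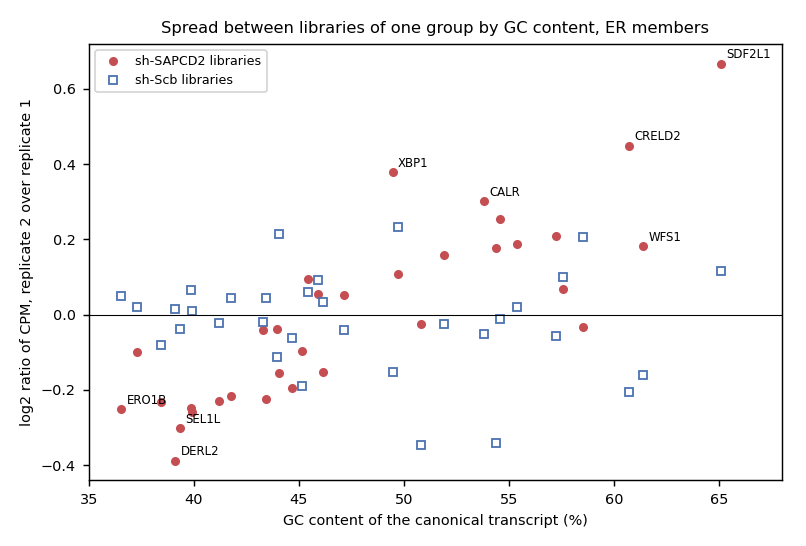
log2 ratio of CPM in replicate 2 over replicate 1 against the GC content of the canonical transcript (%), for the 33 tested ER genes. Filled red circles are the sh-SAPCD2 libraries and open blue squares the sh-Scb libraries. The red points climb from −0.25 for ERO1B to 0.67 for SDF2L1, while the blue points show no such slope.

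Exons of 22 of the 34 genes overlap those of another annotated gene, 7 of them on the same strand, and the strand setting of the counting is not given in the sources used here. Among the 17 called genes, 9 overlap and 2 do so on the same strand (KDELR2 and SYVN1), so that their reads cannot be fully told apart from those of the neighbor. XBP1, HSPA5, DNAJB9, SDF2L1, PDIA4, HERPUD1, EDEM3 and SEL1L have no such overlap.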

How the data were processed

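RNA levels were measured by RNA-seq in 4 libraries of SK-N-BE(2) cells, 2 with sh-Scb and 2 with sh-SAPCD2, grouped by the labels. The authors used HISAT2 2.2.0 to place paired-end reads on hg38 and StringTie to estimate abundances, and deposited unscaled whole-number counts per Ensembl gene. The step from abundances to counts, the annotation release and the treatment of reads with several matches are not given in the sources used here. Of 64252 genes, 29317 had no count in any library. Counts were tested in R 4.3.3 with edgeR 4.0.16 (filterByExpr at 10 counts and a total of 15, TMM, quasi-likelihood test without covariates), which left 18779 genes with a biological coefficient of variation of 15.4%. Gene positions, lengths, GC content and UTRs came from the GENCODE 44 annotation, which matched 17467 of the tested genes. The script was tested on simulated data.

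The 34 genes, the lists of other pathway genes and the searched elements and sites were chosen with earlier results of these data known. Named genes were the 34 genes, SAPCD2, the genes ATF4, DDIT3, ATF3, PPP1R15A, TRIB3, CHAC1, ERO1A, MBTPS1, MBTPS2, KDELR1 and PRDX4 whatever their values, and at most the 5 genes with the smallest p of each list. Markers of other cell types that changed or were at 0 were named after their values were seen, and the calls of single adrenergic markers are not reported here. The alternatives tried were library totals or the size factors of DESeq2 1.42.0 for scaling, DESeq2 itself, tests of every gene or of genes averaging 1 CPM or more, a replicate block, loess offsets (span 0.3) for GC content and transcript length without and with that block, a log2 fold change over 1, and leaving out each library. A comparison of protein C-termini was planned and was not analysed here. Figures used Python 3.11.15 and matplotlib 3.10.9.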

Additional observations from a re-analysis of the deposited data

How the results depend on the processing

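Of the 17 called ER genes, 0 changed sign under the alternatives, and 7 (XBP1, DNAJB9, KDELR3, ERO1B, HERPUD1, EDEM1 and SEL1L) kept their call in every alternative fit at the same threshold. The number of ER genes higher (16) was 10 without a filter on low counts, 6 with a log2 fold change over 1, and 7 to 19 with each library left out, with the low end where a control library was missing. The number lower (1) was 2 after GC and length correction, 0 with a log2 fold change over 1, and 1 to 4 with each library left out. For sensors, 2 higher became 1 without a filter and 1 over a log2 fold change of 1, and 1 to 2 with each library left out, while 0 lower became 1 with GC and length correction and 0 to 1 with each library left out. For folding genes, 10 higher became 5 without a filter, 3 over a log2 fold change of 1 and 3 to 13 with each library left out, and 0 lower became 0 to 1. For degradation genes, 4 higher became 2 over a log2 fold change of 1 and 2 to 4 with each library left out, and 1 lower became 0 over that limit and 1 to 2 with each library left out.

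Over all tested genes, 2326 higher and 2339 lower became 1081 and 1180 without a filter, 880 and 968 over a log2 fold change of 1, and 1156 to 4355 and 1135 to 3996 with each library left out, when the lone library of a group was assumed to vary like the other group. Correction for GC content and length gave 3862 higher and 3410 lower, and 3649 higher together with the replicate block. The median of the folding genes (0.42) was 0.36 with GC and length correction, 0.36 with the block as well, and 0.40 to 0.43 with each library left out. That of the degradation genes (0.42) was 0.20 without a filter, which let DERL3 in, and 0.26 to 0.60 with each library left out. The median of the PERK and ATF4 arm (0.67) was 0.59 at a mean of at least 1 CPM, 0.55 with GC and length correction with or without the block, and 0.52 to 0.67 with each library left out. With each library left out, the medians were −0.025 to 0.18 for other signal genes, 0.20 to 0.25 for other folding genes, 0.005 to 0.11 for other degradation genes and 0.085 to 0.20 for translocon genes. Other folding genes gave 0.24 with library totals and 0.23 with the block, other degradation genes 0.14 with GC and length correction and 0.14 with the block added, and translocon genes 0.27 and 0.26. Called genes higher were fewest without a filter on low counts or without a control library. They were most with GC and length correction, at 10 in the PERK and ATF4 arm and 7 in other signal genes. Other folding genes then had 25, other degradation genes 17 and translocon genes 17. That correction called 20.6% of all tested genes higher, against 12.4% in the main fit. Those lower ranged over 0 to 3, 0 to 4, 0 to 8, 1 to 11 and 0 to 5. SAPCD2 kept its estimate of −0.92 without a filter, where its edgeR adjusted p was 0.0749, and had −1.28 after GC and length correction. Except where the construction of an alternative shows it, the cause of these shifts was not tested.

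Replicate numbers are shared by the groups, but libraries of one number did not deviate from their groups together (correlation −0.02), so the numbers were not taken as pairs. A fit with the replicate block called 15 ER genes higher and 1 lower, without PDIA4 (edgeR adjusted p = 0.0879), and 2860 and 2701 of all genes. DESeq2 called 17 and 1 of the ER genes, and 2594 and 2337 of all genes. Depth kept DERL3 alone, with 2 to 6 counts per library, out of the test.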
